A study of Mus musculus with 22 samples.

Results

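The liver response to interferon-gamma was measured 4 h after injection, against livers taken 4 h after an injection of vehicle. It rests on 4 of the 22 arrays of a mouse time course, chosen by the genotype, injection and time on their labels. SOCS1-/-IFNg-/- mice and IFNg-/- mice were given 4 µg of recombinant interferon-gamma into the peritoneum in a volume of 100 µl, and mice of the same genotypes were given 100 µl of phosphate-buffered saline (PBS). Each genotype and injection had 1 array at 4 h, with no replicates, and the labels do not say whether an array holds 1 liver or a pool. All these mice lacked their own interferon-gamma, controls included, so the injected cytokine was the interferon-gamma they received. SOCS1-/-IFNg-/- mice lacked in addition the suppressor of cytokine signalling SOCS1. Neither mouse ages nor clock hours of sampling stand in the labels, and the material was whole liver. The remaining 18 arrays cover untreated livers, PBS at 12 h and interferon-gamma at 0.5, 1, 2, 12, 16, 24 and 48 h in both genotypes, and they served to estimate the spread.

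Interferon-gamma binds a receptor that activates the kinases JAK1 and JAK2. The signal switches on an early set of genes, many with gamma-activated sites (GAS) in their DNA, among them the transcription factor Irf1, which acts through interferon-stimulated response elements (ISRE). SOCS1 is one of the genes induced in this way, and its protein inhibits the JAK kinases and ends the signal. In liver the cytokine acts on hepatocytes, macrophages and sinusoidal cells, and it is known for inducing chemokines, guanylate-binding and immunity-related GTPases, and the antigen presentation machinery.

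Values are log2 expression as the authors deposited them, and a log2 difference of 1 is a 2-fold difference. A gene was called when the mean of the 2 within-genotype differences, interferon-gamma minus PBS, passed an adjusted p of 0.05 in limma (Benjamini-Hochberg over 8251 genes). The standard error (SE) comes from the other 18 arrays, as the variation of the genotype difference between their 9 conditions (8 residual degrees of freedom). Each array at 4 h is thereby assumed to vary like those. Within a genotype 1 array stands against 1 array, so those differences are given without a test.

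Both deleted genes and the tissue were examined first. Socs1 stood at 6.59 in SOCS1-/-IFNg-/- and 6.89 in IFNg-/- livers after interferon-gamma, against 6.57 and 6.80 after PBS. It did not differ beyond its spread at 4 h (0.06 ± 0.46 SE, adjusted p = 0.979 in limma). Over the whole time course it reached 7.02 on the 11 SOCS1-/-IFNg-/- arrays and 9.21 on the 11 IFNg-/- arrays, and the higher value is that of the IFNg-/- liver at 2 h. Ifng ranged from 2.19 to 2.61 in SOCS1-/-IFNg-/- and from 2.18 to 2.52 in IFNg-/- livers over the time course, in a table whose lowest value is 1.73. Hepatocyte markers were present, with albumin (Alb) at 13.22 and 13.25 after interferon-gamma against 13.31 and 13.31 after PBS. Limma called 0 of 11 measured hepatocyte markers (1 higher and 1 lower at an unadjusted p under 0.05, 0 called in an additive model of condition plus genotype). The SOCS1-/-IFNg-/- interferon array stood apart from the rest of the series. Its median correlation with the other arrays was the lowest, 0.972, and its 3-prime minus 5-prime difference for Actb was the lowest at 0.326, against 0.768 on the IFNg-/- interferon array and 0.658 and 0.831 on the PBS arrays. The part of these readings in the results was not tested.

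Interferon-gamma changed 340 genes at 4 h as the mean of both genotypes in limma (4.12% of 8251), with 246 higher (2.98%) and 94 lower (1.14%). Of the 246 rises, 231 were higher in both genotypes and 228 were larger in SOCS1-/-IFNg-/- livers. Most were small or lay in 1 genotype: 26 passed a log2 difference of 1 in both, 120 in SOCS1-/-IFNg-/- alone, 5 in IFNg-/- alone and 95 in neither. Of the 94 falls, 90 were lower in both genotypes and 85 were larger in SOCS1-/-IFNg-/-, and 1 passed 1 in both. Counted within a genotype without a test, 177 genes were higher by at least 1 in SOCS1-/-IFNg-/- (2.15%) and 36 in IFNg-/- livers (0.436%), and 43 (0.521%) and 7 (0.0848%) were lower. In both genotypes 27 genes were higher by at least 1 (0.327%) and 3 were lower (0.0364%). The differences of all genes had an SD of 0.438 in SOCS1-/-IFNg-/- and 0.229 in IFNg-/-, around medians of -0.04 and -0.00.

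The number called depended on where the spread came from and on single arrays. When the genotype difference at 4 h itself entered the spread, in an additive model (condition plus genotype), 112 genes were called, 82 higher and 30 lower. All 112 were among the 340, and each had the same sign in both genotypes. That model favours a shared sign, because a genotype difference at 4 h widens its spread. Of all 8251 genes, 1892 were higher and 2748 lower in both genotypes. Left out in turn from that model, the SOCS1-/-IFNg-/- interferon array left 30 genes called, the IFNg-/- interferon array 536, the SOCS1-/-IFNg-/- PBS array 17 and the IFNg-/- PBS array 84. Of 75 called genes that the naming rule picks for the mean response, 35 were called in the additive model and 9 were called without each of the 4 arrays in turn. Without the SOCS1-/-IFNg-/- interferon array 19 of the 75 kept their calls, without the IFNg-/- interferon array 64, without the SOCS1-/-IFNg-/- PBS array 11 and without the IFNg-/- PBS array 27. The 9 were the chemokines Cxcl9 and Ccl2, the GTPases Ifi47 and Igtp, the adhesion molecule Icam1, the phospholipid scramblase Plscr1 and Susd6 among rises, and the decarboxylase Ddc and the transcription factor Rreb1 among falls.

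**Figure D1:**
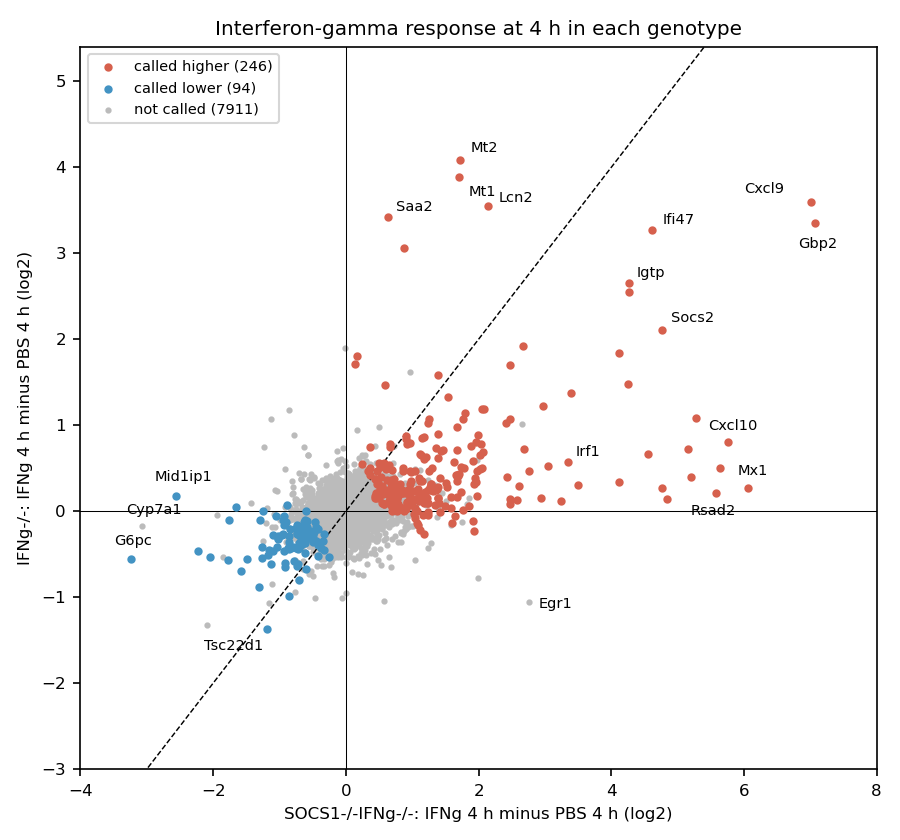
Each point is 1 of 8251 genes, placed by its log2 difference between interferon-gamma and PBS at 4 h in SOCS1-/-IFNg-/- livers (horizontal axis) and in IFNg-/- livers (vertical axis), with the 246 called rises in red, the 94 called falls in blue and equal responses on the dashed line. Most called rises lie below the dashed line, Cxcl9 at 7.01 and 3.60 and Mx1 at 6.07 and 0.27, while Saa2, Mt1, Mt2 and Lcn2 lie above it.

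The largest rises were in chemokines and in the GTPases that interferon-gamma induces. Cxcl9, a ligand of the T cell receptor CXCR3, stood at 11.34 in SOCS1-/-IFNg-/- and 8.06 in IFNg-/- livers given interferon-gamma, against 4.33 and 4.46 after PBS. Both interferon livers lay far above both PBS livers, and the mean difference was 5.30 ± 0.29 (39.5-fold, adjusted p = 5.53e-07 in limma). Gbp2, a guanylate-binding protein that attacks the vacuoles of intracellular pathogens, had 11.34 and 7.89 after interferon-gamma against 4.27 and 4.53 after PBS, a mean difference of 5.21 ± 0.61 (adjusted p = 0.000141). Its call was lost without the SOCS1-/-IFNg-/- PBS array. Ifi47, an immunity-related GTPase, reached 10.70 and 9.51 against 6.09 and 6.23 (3.94 ± 0.30). Igtp, a GTPase of the same family, reached 10.50 and 8.61 against 6.24 and 5.95 (3.46 ± 0.38). In each of these 4 genes the SOCS1-/-IFNg-/- liver was the higher of the interferon livers and the PBS livers differed by less than 0.5.

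The promoters of 4 genes show the letters of GAS or ISRE elements, and these are the largest rises with such letters among the genes that have a window here. Of the 15 largest rises Socs2, Ccl2, Mx1 and Gm9706 have none. The windows run from 250 bases before to 50 after the annotated start, 5′ to 3′ on the gene's strand (RefSeq, GRCm38.p6), with the matching letters in capitals. GAS was searched as TTCNNNGAA and ISRE as GAAA, any 2 bases and GAAA again, on both strands; a GAS match reads alike on both. The Gbp2 window is chr3:142620413-142620712 on the plus strand with an ISRE match on the opposite strand. Igtp is chr11:58199306-58199605 on the plus strand with a GAS match followed by an ISRE match. Cxcl10 is chr5:92348840-92349139 on the minus strand with an ISRE match, and Samhd1 is chr2:157135047-157135346 on the minus strand with a GAS match.
Gbp2: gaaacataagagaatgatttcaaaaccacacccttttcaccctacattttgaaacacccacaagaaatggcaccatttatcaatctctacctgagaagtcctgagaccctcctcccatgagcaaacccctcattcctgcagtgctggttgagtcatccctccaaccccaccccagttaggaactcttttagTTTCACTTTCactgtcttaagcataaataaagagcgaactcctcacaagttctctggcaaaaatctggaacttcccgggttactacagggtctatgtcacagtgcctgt
Igtp: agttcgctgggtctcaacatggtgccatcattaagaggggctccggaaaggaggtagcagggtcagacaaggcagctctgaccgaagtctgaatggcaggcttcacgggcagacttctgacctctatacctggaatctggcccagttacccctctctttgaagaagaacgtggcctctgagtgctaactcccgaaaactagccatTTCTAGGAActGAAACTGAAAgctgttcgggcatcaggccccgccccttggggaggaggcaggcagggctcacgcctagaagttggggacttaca
Cxcl10: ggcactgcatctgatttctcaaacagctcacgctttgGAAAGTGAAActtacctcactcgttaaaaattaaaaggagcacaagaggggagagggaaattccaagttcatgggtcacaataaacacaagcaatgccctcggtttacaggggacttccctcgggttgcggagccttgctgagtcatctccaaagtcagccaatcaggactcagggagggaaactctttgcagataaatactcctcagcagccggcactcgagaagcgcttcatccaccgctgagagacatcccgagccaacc
Samhd1: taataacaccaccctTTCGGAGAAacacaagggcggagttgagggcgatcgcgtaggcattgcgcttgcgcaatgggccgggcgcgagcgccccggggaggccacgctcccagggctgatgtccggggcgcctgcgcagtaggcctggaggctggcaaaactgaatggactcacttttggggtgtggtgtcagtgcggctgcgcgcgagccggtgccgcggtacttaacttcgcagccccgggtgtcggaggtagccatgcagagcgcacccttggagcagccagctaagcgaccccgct

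Such letters stood in the windows of 28.1% of the rises that have one (56 of 199, with 32 holding GAS and 31 ISRE). Among 78 falls with a window 3 held either (3.85%). Of the 6576 tested genes with a window, 8.5% held GAS, 3.89% held ISRE and 11.8% either, and over all 27025 genes with a RefSeq window the share with either was 12.9%. Among the 15 largest rises 11 had a window and 8 of these held a match. The windows of Cxcl9, Ifi47 and Mt2 held neither, which says only that these letters are not within them. A match is a description of the sequence.

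All 9 measured members of the list of GTPases induced by interferon-gamma rose in the mean, and 8 of them passed 1 in both genotypes. Their median difference was 4.25 in SOCS1-/-IFNg-/- and 1.84 in IFNg-/- livers, against -0.04 and -0.00 over all genes. Gbp7 stood at 10.62 and 8.27 after interferon-gamma against 6.51 and 6.43 after PBS (2.97 ± 0.28), and Gbp3 at 9.92 and 7.24 against 5.67 and 5.76 (2.86 ± 0.31). Both are guanylate-binding proteins, and in both the SOCS1-/-IFNg-/- interferon liver was the highest. Irgm1 and Irgm2, immunity-related GTPases that regulate others of their family, rose by 2.38 ± 0.23 and 2.30 ± 0.19, and Iigp1, an effector GTPase, by 1.64 ± 0.25. Gm9706, whose place among the GTPases was not checked, had 8.81 and 4.32 against 3.65 and 3.61. Its rise of 2.94 ± 0.38 lay mainly in SOCS1-/-IFNg-/-, and it was the 1 list member not called in the additive model. The antiviral gene Isg15 had differences of 4.55 and 0.67, beside 5.15 and 0.72 for Gm9706. GTPases of these families are near-identical in parts, and probes may measure more than 1 of them.

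**Figure D2:**
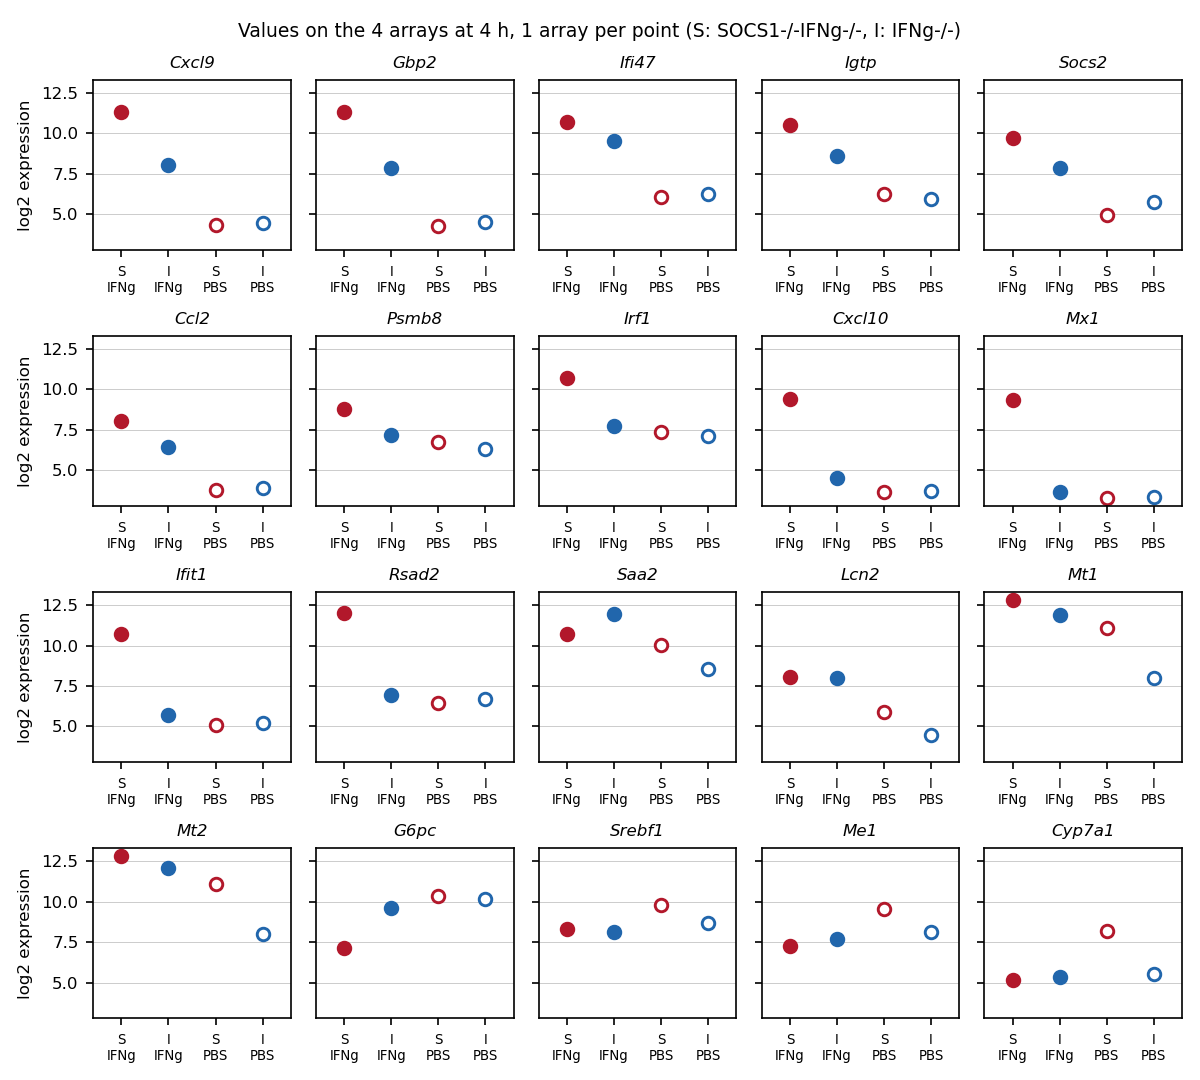
Each panel is 1 gene, and each point is the log2 value of 1 of the 4 arrays at 4 h (S, SOCS1-/-IFNg-/-, red; I, IFNg-/-, blue; filled, interferon-gamma; open, PBS). In Cxcl9, Gbp2, Ifi47, Igtp, Socs2 and Ccl2 both filled points stand above both open points, in Cxcl10, Mx1, Ifit1 and Rsad2 the IFNg-/- filled point stands near the open points, and in Mt1, Mt2 and Cyp7a1 the PBS points lie apart.

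Of 24 measured chemokines 4 rose (16.7%, against 2.98% of all genes). The median difference of all 24 was 0.05 in SOCS1-/-IFNg-/- and 0.02 in IFNg-/- livers. Ccl2, which draws monocytes through CCR2, stood at 8.06 and 6.47 after interferon-gamma against 3.79 and 3.92 after PBS (3.41 ± 0.31, adjusted p = 1.81e-05). Ccl7, a further monocyte chemokine, had 4.93 and 3.52 against 2.98 and 3.13 (1.17 ± 0.10). Cxcl10, the second CXCR3 ligand here, had 9.42 and 4.54 against 3.66 and 3.74 (3.28 ± 0.28). Its IFNg-/- interferon liver lay close to the PBS livers, and the call was lost in the additive model (adjusted p = 0.0838). Cxcl1, a neutrophil chemokine, had 10.06 and 10.02 against 9.10 and 8.41, but 6.39 and 5.42 in untreated livers. Against PBS it was not called (1.29 ± 0.82, adjusted p = 0.529), while against untreated livers it stood 4.14 higher (adjusted p = 0.0062), and PBS livers stood 2.84 above untreated ones.

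Signalling genes rose in part, and feedback inhibitors with them. Of 20 measured JAK-STAT and interferon regulatory factor genes, 7 rose (35%, against 2.98% of all genes): Irf1, Irf8, Irf7, Il6st, Jak2, Stat3 and Jak1. Irf1, a transcription factor of the interferon response, stood at 10.73 and 7.71 after interferon-gamma against 7.38 and 7.14 after PBS (1.96 ± 0.19, adjusted p = 3.23e-05). Irf8 had 8.47 and 6.23 against 5.42 and 5.71 (1.78 ± 0.19), and Irf7, the regulator of type I interferon genes, 8.82 and 7.08 against 6.76 and 6.57 (1.28 ± 0.14). All 3 were far higher in the SOCS1-/-IFNg-/- interferon liver than in the other livers of 4 h. In the additive model with all 4 arrays Irf7 was called (adjusted p = 0.0431 in limma), and Irf1 (0.0784) and Irf8 (0.0529) were not. None of the 3 was called there without the SOCS1-/-IFNg-/- interferon array or without either PBS array. On the other 18 arrays they reached up to 10.56 (Irf1), 8.19 (Irf8) and 8.65 (Irf7). The second probe set of Irf7 gave 0.29. Jak2, the receptor kinase, rose by 0.55 ± 0.08. Of 13 feedback inhibitors 5 rose (38.5%). Socs2, which restrains growth hormone signalling, had 9.72 and 7.86 against 4.95 and 5.75 (3.44 ± 0.31). Usp18, which removes ISG15 from proteins and blocks the type I interferon receptor, had 10.25 and 6.27 against 6.13 and 5.93 (2.23 ± 0.16). Socs3, the inhibitor of interleukin-6 signalling, had 8.44 and 7.35 against 6.80 and 6.77 (1.11 ± 0.17), and both PBS livers stood above the untreated 5.94 and 6.10. The phosphatases Ptpn1 and Ptpn2 rose by 0.86 ± 0.13 and 0.61 ± 0.14.

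The antiviral genes that type I interferon also induces rose in the mean through 1 array. Of 21 measured, 18 were called higher (85.7%, against 2.98% of all genes), 17 passed 1 in SOCS1-/-IFNg-/- and 2 in IFNg-/- livers. Their median difference was 2.41 in SOCS1-/-IFNg-/- and 0.25 in IFNg-/-. Rsad2 (viperin), which makes a chain-terminating nucleotide, stood at 12.04 and 6.94 after interferon-gamma against 6.46 and 6.73 after PBS. Mx1, a dynamin-like GTPase that blocks influenza virus, stood at 9.33 and 3.63 against 3.27 and 3.36. Ifit1, which binds foreign RNA caps, stood at 10.75 and 5.70 against 5.11 and 5.19. In each the SOCS1-/-IFNg-/- interferon liver stood alone among the 4, and the IFNg-/- interferon liver lay with the PBS livers. This holds for 4 h: at 2 h of interferon-gamma the SOCS1-/-IFNg-/- and IFNg-/- livers had 10.80 and 10.31 of Rsad2. They had 6.97 and 5.55 of Mx1 and 9.30 and 8.74 of Ifit1. The mean differences were 2.90 ± 0.22 for Rsad2, 3.17 ± 0.29 for Mx1 and 3.07 ± 0.21 for Ifit1. Samhd1, which degrades nucleotides needed for reverse transcription, had 10.44 and 6.0 against 5.16 and 4.91 (3.18 ± 0.43), while its second probe set gave 0.06. In the additive model 1 of the 18 was called, Ifi204, a DNA sensor that had 8.25 and 6.53 against 5.84 and 5.50 (1.72 ± 0.12, other probe sets -0.03 and 0.28).

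Genes of peptide processing for MHC class I rose in both genotypes, and class II genes did not pass the test. Of 18 measured class I genes 5 rose (27.8%, against 2.98% of all genes). Tap1, a subunit of the peptide transporter into the endoplasmic reticulum, had 9.32 and 7.87 after interferon-gamma against 6.34 and 6.64 after PBS (2.10 ± 0.14, adjusted p = 1.29e-06), with 0.17 on a dimmer probe set. The immunoproteasome subunits Psmb9, Psmb8 and Psmb10 rose by 1.77 ± 0.17, 1.44 ± 0.14 and 1.09 ± 0.15. Psmb8 had 8.77 and 7.21 against 6.77 and 6.32, with both interferon livers above both PBS livers. Psme1, an activator subunit of the proteasome, rose by 0.55 ± 0.14. In MHC class II presentation limma called 0 of 15 measured genes (4 higher at an unadjusted p under 0.05, 0 in the additive model). The invariant chain Cd74 had 8.70 and 7.51 against 7.66 and 7.02, a difference of 0.77 ± 0.22 that did not pass (adjusted p = 0.0766).

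Of 30 measured acute phase genes 11 rose (36.7%, against 2.98% of all genes), and 6 were called higher in the additive model. The signed difference was larger in SOCS1-/-IFNg-/- livers for 11 of the 30, and for 3599 of all 8251 genes. The median was 0.19 in SOCS1-/-IFNg-/- and 0.43 in IFNg-/-. Lcn2, which withholds iron from bacteria, had 8.05 and 8.02 after interferon-gamma against 5.91 and 4.48 after PBS (2.85 ± 0.50, adjusted p = 0.00378), though its second probe set gave 0.17. Saa2, a serum amyloid of high density lipoprotein, had 10.69 and 11.96 against 10.06 and 8.54 (2.03 ± 0.39, adjusted p = 0.0073 in limma). Its second probe set gave 1.09, with -0.12 in SOCS1-/-IFNg-/- and 2.29 in IFNg-/- livers. Saa2 was not called in the additive model (adjusted p = 0.0717 in limma). Saa3 had 7.04 and 9.23 against 6.16 and 6.17 (1.97 ± 0.48). In both serum amyloid genes the IFNg-/- interferon liver was the highest. The 5 called rises past 1 in IFNg-/- alone were Saa2, Saa3, Saa-ps, Apcs and Il1r1, named after their values were seen. Serpina3n, a protease inhibitor, had a like difference in both genotypes, 1.25 and 1.07, and rose by 1.16 ± 0.21. Of 19 complement genes 2 rose (10.5%). C1qb, a chain of the recognition complex, rose by 0.70 ± 0.10 and C2, a protease of the cascade, by 0.47 ± 0.08. C2 differed by 0.91 in SOCS1-/-IFNg-/- and 0.03 in IFNg-/- livers, and its second probe set gave 0.04. It was not called in the additive model (adjusted p = 0.204 in limma).

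The metallothioneins, metal-binding proteins that stress and glucocorticoids induce, stand with the acute phase genes and turned on the PBS arrays. Mt2 had 12.82 and 12.12 after interferon-gamma against 11.10 and 8.03 after PBS, with 7.43 and 7.30 in untreated livers. Mt1 had 12.79 and 11.90 against 11.09 and 8.02, with 7.96 and 6.93 untreated. The SOCS1-/-IFNg-/- PBS liver thus lay closer to the interferon livers than to the untreated ones, in contrast to the IFNg-/- PBS liver. The mean differences were 2.90 ± 0.59 for Mt2 (adjusted p = 0.0107) and 2.79 ± 0.66 for Mt1 (adjusted p = 0.0284). In the additive model with all 4 arrays Mt1 was not called (adjusted p = 0.0717 in limma), nor was it with any 1 of them left out. Mt2 was called there with all 4 arrays (adjusted p = 0.0454 in limma). With 1 array left out, Mt2 kept its call only without the SOCS1-/-IFNg-/- PBS array. Of 21 glucocorticoid targets 4 rose, the metallothioneins, Lcn2 and Zbtb16, and 2 fell, G6pc and Tat. Together these were 28.6% of the 21, against 4.12% of all genes called.

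Inflammatory, immediate early and cell death genes rose in part, beside 2.98% of all genes called higher. Of 25 NF-kB targets and regulators 7 rose (28%), led by Icam1, an adhesion molecule for leukocytes, with 6.62 and 5.71 after interferon-gamma against 4.14 and 4.00 after PBS (2.09 ± 0.27). The adaptor Myd88 rose by 1.05 ± 0.11. Of 33 immediate early genes 4 rose (12.1%), Crem by 1.06 ± 0.13, Zfp36 by 0.90 ± 0.19, Klf6 by 0.76 ± 0.16 and Jun by 0.56 ± 0.09, and Zfp36 lost its sign without the SOCS1-/-IFNg-/- interferon array (-0.05). Egr1, a zinc finger factor, had 9.26 and 7.03 against 6.50 and 8.08, higher in 1 genotype and lower in the other. Fos differed between its probe sets, -0.21 on the brighter and 0.91 on the dimmer, and was not called. Of 26 cell death genes 6 rose (23.1%), among them Daxx, a nuclear partner of death receptor signalling, by 1.36 ± 0.12, the death receptor Fas by 1.19 ± 0.18, the inflammatory caspase Casp4 by 0.80 ± 0.11 and the initiator Casp8 by 0.70 ± 0.10. Fas had 5.70 and 4.53 against 4.03 and 3.82, the only 1 of these 4 with a difference over 0.5 in IFNg-/- livers. Acod1, which makes itaconate in macrophages, and Wars, the tryptophan tRNA ligase, rose by 1.12 ± 0.14 and 1.05 ± 0.11 (other probe sets gave 0.24 for Acod1, 2.03 and 0.51 for Wars).

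Of the markers of other liver cells, only some of those of macrophages were called. Of 14 measured macrophage and monocyte markers 3 rose (21.4%, against 2.98% of all genes): the pore-forming Mpeg1 by 1.38 ± 0.11, the complement chain C1qb by 0.70 ± 0.10 (second probe set 0.00) and the endotoxin receptor Cd14 by 0.39 ± 0.09. The mean level of the 14 was 6.57 and 6.36 after interferon-gamma against 6.28 and 6.13 after PBS. The Kupffer cell lectin Clec4f had 8.24 and 8.10 against 8.36 and 8.01, and the macrophage receptor Adgre1 had 6.26 and 6.13 against 6.04 and 6.06. None of these arrays measures a zero, so absence of a marker cannot be read from them. Among markers of neutrophils (13 measured), T and NK cells (19), B cells (10), endothelial cells (12), stellate cells and fibroblasts (11), cholangiocytes (6) and erythroid cells (7) limma called 0. At an unadjusted p under 0.05, 2 neutrophil, 1 stellate and 2 cholangiocyte markers were higher and 1 endothelial marker was lower. In whole liver, fewer cells of a type and less RNA per cell cannot be told apart, and the part of the macrophage markers in other results was not tested.

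**Figure D3:**
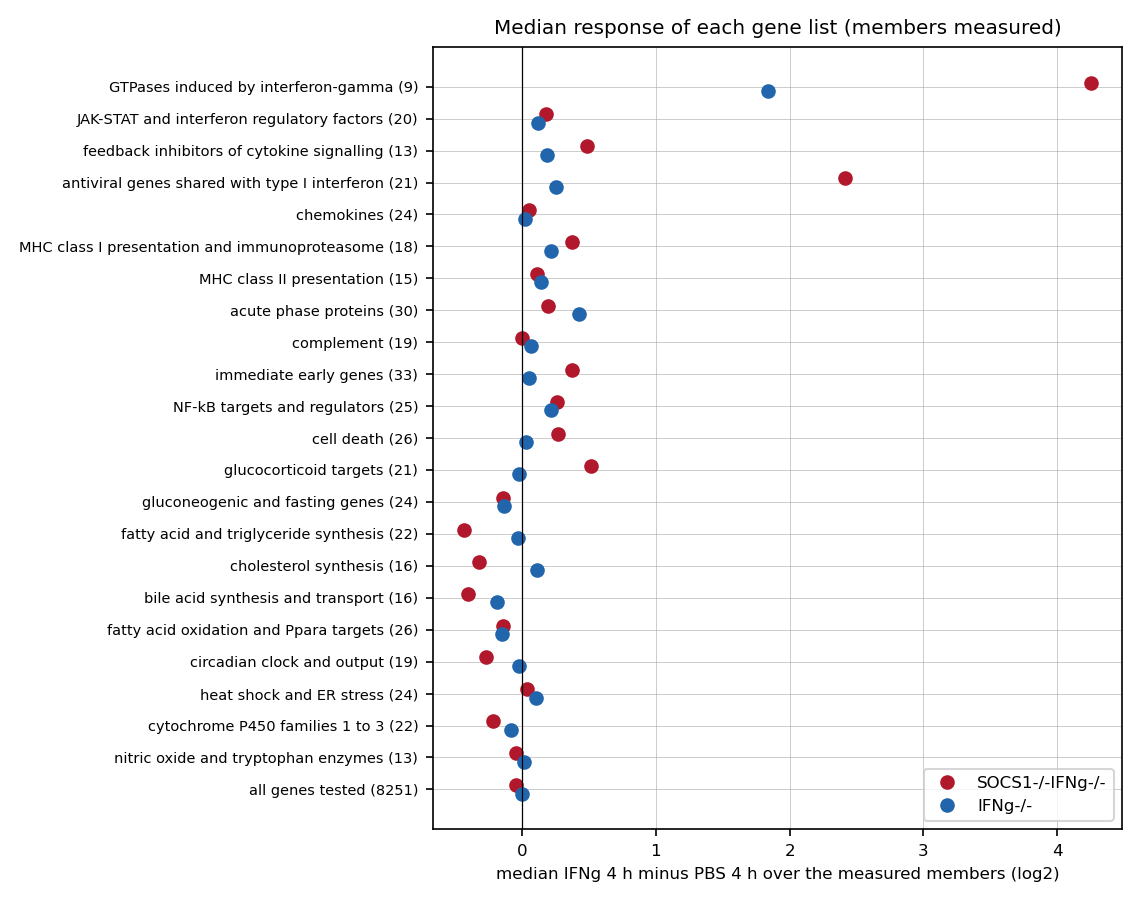
Each row is a gene list with its number of measured members, and the points are the median log2 difference between interferon-gamma and PBS at 4 h over those members (red, SOCS1-/-IFNg-/-; blue, IFNg-/-), with all 8251 genes in the bottom row. GTPases stand at 4.25 and 1.84, antiviral genes at 2.41 and 0.25, and fatty acid and triglyceride synthesis at -0.43 and -0.03, while the median of all genes was -0.04 and -0.00.

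The falls were smaller than the rises and touched glucose release, glucose transport and lipid synthesis. G6pc, the enzyme that completes glucose release from the liver, stood at 7.12 in SOCS1-/-IFNg-/- and 9.58 in IFNg-/- livers after interferon-gamma, against 10.36 and 10.14 after PBS and 10.68 and 11.69 untreated. The mean difference was -1.90 ± 0.32 (adjusted p = 0.00283 in limma). The SOCS1-/-IFNg-/- interferon liver was by far the lowest. In the additive model G6pc was not called with all the arrays (adjusted p = 0.0693 in limma). It was also not called there without the SOCS1-/-IFNg-/- interferon array or without either PBS array. Slc2a2, the glucose transporter of hepatocytes, had 7.99 and 8.23 against 9.58 and 8.93 (-1.14 ± 0.25). Tat, which breaks down tyrosine, had 10.06 and 10.74 against 11.16 and 11.02 (-0.69 ± 0.17, adjusted p = 0.0323 in limma). In the additive model neither Slc2a2 (adjusted p = 0.0613 in limma) nor Tat (0.108) was called. Of 24 gluconeogenic and fasting genes G6pc and Tat fell (8.33%, against 1.14% of all genes). Pck1, the other control point of gluconeogenesis, had 9.40 and 9.27 against 8.30 and 9.43 and did not pass (0.47 ± 0.26, adjusted p = 0.447).

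Of 22 fatty acid and triglyceride synthesis genes 5 fell in the mean (22.7%, against 1.14% of all genes), and 0 of these 5 were called in the additive model. Srebf1, the transcription factor that drives lipogenesis, had 8.31 and 8.12 after interferon-gamma against 9.80 and 8.67 after PBS (-1.02 ± 0.19, adjusted p = 0.00625). Me1, which supplies NADPH to fatty acid synthesis, had 7.29 and 7.68 against 9.53 and 8.15 (-1.35 ± 0.31). Untreated livers had 6.94 and 7.47 of Me1, so that the PBS livers stood above both other kinds, and against untreated livers the difference was 0.28. Mid1ip1, an activator of acetyl-CoA carboxylase, had 5.94 and 7.03 against 8.51 and 6.84 (-1.19 ± 0.28, second probe set -0.40). Gpam, the first acyltransferase of triglyceride synthesis, had 8.01 and 8.90 against 9.65 and 8.85 (-0.80 ± 0.19), and Scd2 fell by 0.40 on the log2 scale. In IFNg-/- livers alone Mid1ip1 differed by 0.18 and Gpam by 0.05. In these lipid genes the SOCS1-/-IFNg-/- PBS liver was the highest of the 4, which holds for Srebf1, Me1, Mid1ip1 and Gpam.

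Of 16 bile acid genes Cyp8b1, Hsd3b7 and Amacr fell (18.8%, against 1.14% of all genes), and 0 of them were called in the additive model. Cholesterol synthesis, P450 and clock genes had no calls. Cyp8b1, which sets the share of cholic acid, had 9.83 and 9.98 after interferon-gamma against 10.55 and 10.59 after PBS, alike in both genotypes (-0.66 ± 0.17, adjusted p = 0.0418). Cyp7a1, the rate-limiting enzyme of bile acid synthesis, had 5.13 and 5.37 against 8.20 and 5.54, with 7.04 and 6.63 untreated. The 2 PBS livers differed by more than the interferon livers did from the IFNg-/- PBS liver, and Cyp7a1 was not called (-1.62 ± 0.46, adjusted p = 0.0726). Its repressor Nr0b2 differed by -0.09. Of 26 genes of fatty acid oxidation Ppara, their transcription factor, fell (7.04 and 9.31 against 8.33 and 9.41, -0.70 ± 0.17), and without the SOCS1-/-IFNg-/- interferon array its difference was 0.27. Of 24 heat shock and ER stress genes the chaperonin Hspe1 fell by 0.30 on the log2 scale. In the additive model neither Ppara nor Hspe1 was called. Limma called 0 of 16 cholesterol synthesis genes (2 lower at an unadjusted p under 0.05), 0 of 22 P450 genes (3 lower) and 0 of 19 clock genes (3 lower), and 0 of each in the additive model. Lss, of cholesterol synthesis, differed by -0.38 ± 0.17 (adjusted p = 0.301), the clock output Dbp by -0.31 ± 0.13 (adjusted p = 0.284) and Per1 by 0.03 ± 0.09. Among the remaining large falls were Cavin2 (-1.29 ± 0.18), Tsc22d1 (-1.28 ± 0.25), the tight junction protein Cldn1 (-1.17 ± 0.24, second probe set -0.71), Rreb1 (-1.10 ± 0.11) and the cell cycle protein Cks2 (-0.93 ± 0.15), and Ddc, which makes dopamine and serotonin, differed by -0.92 ± 0.12. Tsc22d1 was the fall past 1 in both genotypes, with 6.20 and 5.46 against 7.40 and 6.84.

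The difference between the genotypes was tested as the response in SOCS1-/-IFNg-/- minus the response in IFNg-/- livers. It was called for 105 genes (1.27%), 95 higher (1.15%) and 10 lower (0.121%). Of the 95, 89 had a difference within 1 in IFNg-/- livers and 77 within 0.5. Nearly all genes lay within 1 there: of 8251, 36 (0.436%) were higher by at least 1 and 7 (0.0848%) lower. Antiviral genes made up the largest group, with 15 of 21 called higher. Mx1 differed by 5.80 ± 0.57 (adjusted p = 0.000117), Rsad2 by 5.36 ± 0.45, Ifit1 by 5.13 ± 0.42 and Cxcl10 by 4.96 ± 0.56. Ifit3 and Ifit2, RNA-binding relatives of Ifit1, differed by 4.81 ± 0.36 and 4.70 ± 0.52, the nucleotide kinase Cmpk2 by 4.50 ± 0.30 and Gm9706 by 4.44 ± 0.76. The dimmer probe set of Cmpk2 had differences of only 1.06 in SOCS1-/-IFNg-/- and 0.32 in IFNg-/-. Of the 9 members of the GTPase list only Gm9706 was called. Gbp2 had a difference of 3.71 ± 1.22 that did not pass (adjusted p = 0.247 in limma). Its SE took in genotype differences of 1.98, 2.65 and 2.20 at 12, 16 and 24 h of interferon-gamma. In the other conditions behind that SE the genotype difference lay between -0.38 and 1.16. Cxcl9 differed by 3.40 ± 0.57 (adjusted p = 0.00893) and Irf1 by 2.77 ± 0.39 (adjusted p = 0.00231). Egr1 differed by 3.81 ± 0.47 (adjusted p = 0.00085), although its dimmer probe set had differences of -0.12 in SOCS1-/-IFNg-/- and 0.08 in IFNg-/-.

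Among the 10 genes with a negative difference were Mid1ip1 (-2.75 ± 0.56), Gpam (-1.70 ± 0.38, adjusted p = 0.0496), Cks2 (-1.66 ± 0.30) and the interleukin-1 receptor Il1r1 (-1.64 ± 0.35). Next were the mitochondrial kinase Ak4 (-1.25 ± 0.21), the integrin adaptor Fermt2 (-1.14 ± 0.18), the sphingosine receptor S1pr1 (-1.05 ± 0.19) and the nucleoside transporter Slc29a1 (-0.997 ± 0.16). Cks2 was lower in SOCS1-/-IFNg-/- livers (-1.76) and near 0 in IFNg-/- livers (-0.10), and likewise Ak4 (-1.25 and -0.003) and Slc29a1 (-1.06 and -0.06). Fermt2 (-0.70 and 0.44) and S1pr1 (-0.68 and 0.38) had opposite signs in the genotypes. Dimmer probe sets gave smaller contrasts, -0.44 and 0.04 for Ak4, -0.23 and 0.03 for S1pr1 and -0.86 and 0.06 for Mid1ip1. That of Slc29a1 gave 0.03 and -0.03, which does not repeat its difference. Il1r1 had 7.86 and 8.68 after interferon-gamma against 7.70 and 6.88 after PBS, so that it rose in the mean (0.98 ± 0.17) through the IFNg-/- liver. Saa2 (-2.80 ± 0.77, adjusted p = 0.135), Mt1 (-2.18 ± 1.33, adjusted p = 0.68) and Mt2 (-2.36 ± 1.17, adjusted p = 0.576) had the smaller response in SOCS1-/-IFNg-/-, without passing the test. Each difference rests on 4 arrays, and the PBS arrays contributed to it. For Mid1ip1 the PBS livers differed by 1.67 between genotypes and the interferon livers by -1.08.

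**Figure D4:**
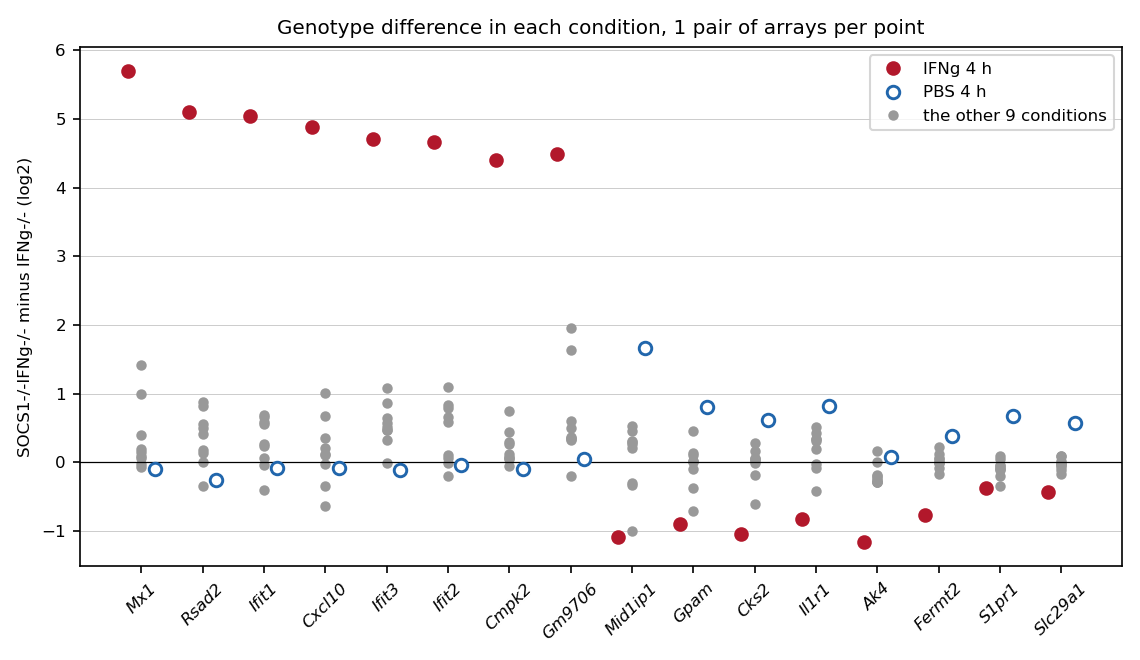
For 16 genes with the largest called differences in either direction, each point is the log2 value on the SOCS1-/-IFNg-/- array minus that on the IFNg-/- array of 1 condition (red, interferon-gamma at 4 h; open blue, PBS at 4 h; grey, the other 9 conditions). For Mx1 to Gm9706 the interferon pair at 4 h stands alone above 4 while PBS lies near 0, and for Mid1ip1 to Slc29a1 the interferon pair lies below 0 and the PBS pair above 0.

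Across all genes the interferon pair at 4 h had the widest difference between genotypes of the 11 conditions, and the PBS pair lay within the range of the others. The difference between the genotypes had an SD over genes of 0.375 in the interferon pair at 4 h and 0.230 in the PBS pair, against 0.154 to 0.257 in the other 9 conditions. In the interferon pair 132 genes were higher by at least 1 in SOCS1-/-IFNg-/- and 17 were lower. In the PBS pair the counts were 25 and 11, although neither liver had received the cytokine.

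PBS livers at 4 h differed from untreated livers in 2 called genes (0.0242%), Id2 and Nab2, with 940 at an unadjusted p under 0.05. Id2, which blocks basic helix-loop-helix factors, stood at 9.78 and 9.61 after PBS against 8.66 and 8.23 untreated (1.25 ± 0.18, adjusted p = 0.0445), and Nab2, a repressor of Egr factors, was 0.70 higher (adjusted p = 0.0122). Interferon livers added little to Id2, with 10.14 and 10.01 (0.38 over PBS, adjusted p = 0.34). Against untreated livers interferon-gamma gave 655 called genes (7.94%), 415 higher (5.03%) and 240 lower (2.91%). The comparisons share arrays, so their values are given side by side.

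All 9 members of the GTPase list and 18 of 21 antiviral genes were called higher against either control, while single interferon-induced genes moved with it. Cxcl9 stood 5.30 above PBS and 5.46 above untreated livers, Gbp2 5.21 and 5.15, and Mx1 3.17 and 3.27. Irf1 stood 1.96 above PBS and 2.59 above untreated livers, Iigp1 1.64 and 2.15, Socs3 1.11 and 1.87, and Socs2 3.44 and 2.74. Among acute phase and stress genes Mt2 stood 2.90 above PBS and 5.11 above untreated livers, Mt1 2.79 and 4.90, and Saa2 2.03 and 3.64. PBS livers alone stood 2.20, 2.10 and 1.62 above untreated ones in these 3 genes, without passing the test (adjusted p = 0.201, 0.273 and 0.201 in limma). Of 30 acute phase genes 19 were called higher against untreated livers, and 11 against PBS. Of 33 immediate early genes the counts were 12 and 4. Over all 8251 genes they were 415 (5.03%) and 246 (2.98%), so more genes were called against untreated livers in general. For falls, G6pc stood 2.84 below untreated and 1.90 below PBS livers on the log2 scale, and Msmo1, of cholesterol synthesis, differed by -1.13 from untreated (adjusted p = 0.0253) and by -0.30 from PBS livers. Cholesterol synthesis had 5 of 16 called lower against untreated livers and 0 against PBS, with 240 (2.91%) and 94 (1.14%) over all genes. The clock repressor Nr1d1 had 7.21 and 7.41 after interferon-gamma against 7.57 and 7.58 after PBS, while untreated livers had 6.48 and 5.68. The interferon and PBS livers of 4 h lay together in Nr1d1, above the untreated ones, and the hour of day at which untreated livers were taken was not compared.

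**Figure D5:**
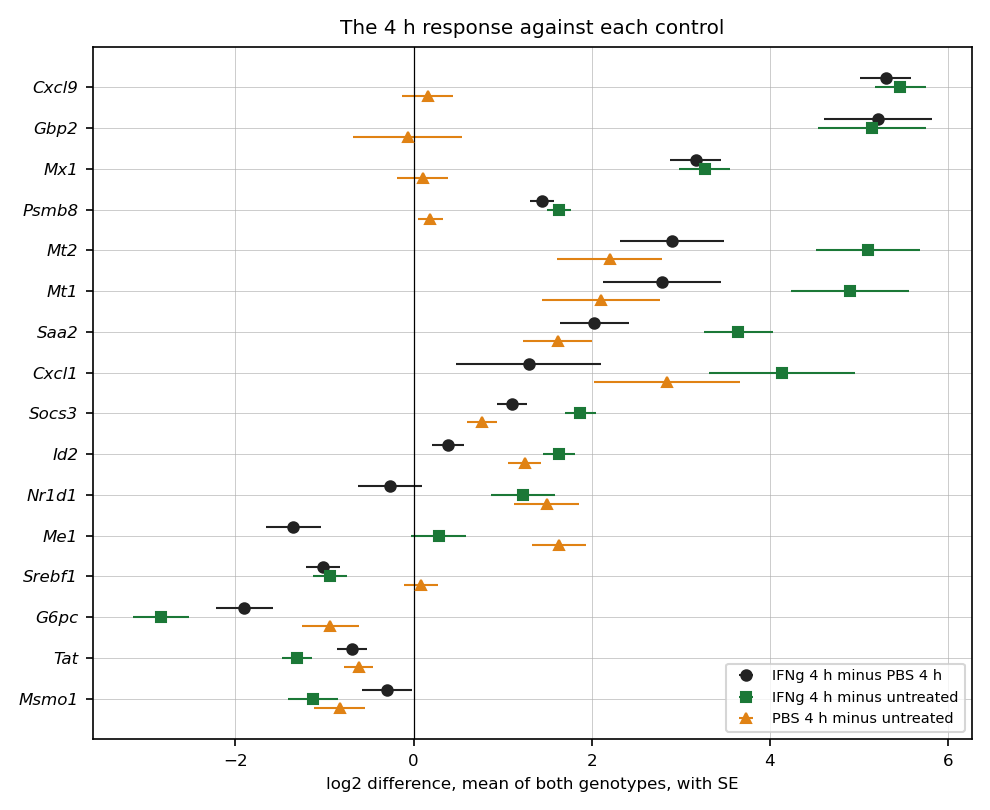
For 16 genes the symbols give the mean log2 difference over both genotypes with its SE (black circle, interferon-gamma minus PBS at 4 h; green square, interferon-gamma at 4 h minus untreated; orange triangle, PBS at 4 h minus untreated). For Cxcl9, Gbp2, Mx1 and Psmb8 the orange triangles lie near 0, for Mt1, Mt2, Saa2 and Cxcl1 they lie between 1.62 and 2.84, and for Me1 the black and green symbols lie on opposite sides of 0.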

How the data were processed

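RNA of whole mouse liver was measured on Affymetrix 3-prime expression arrays, 1 array per genotype and condition, after extraction with Trizol and RNeasy per the labels' protocols. The authors deposited log2 expression values for 12488 probe sets, and the affy package is named per the submitters' processing notes. How they were background-corrected, normalized and summarised is not given in the sources used here. Values ran from 1.73 to 13.5, and array medians from 5.64 to 5.71. Control probe sets (66) were left out. Of the rest, 10833 carried 1 gene symbol, 396 several and 1193 none, and symbols checked through RefSeq (GRCm38.p6) needed 0 updates. The probe set with the highest mean stood for each of 8251 genes. No 2 arrays were identical (highest r 0.996). With arrays, their number limits the precision.

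Fits were made with limma 3.58.1 under R 4.3.3 (lmFit, eBayes, Benjamini-Hochberg over 8251 genes, threshold 0.05) and tested on simulated data. Each array at 4 h had its own coefficient, and the other 18 arrays entered as condition effects with a genotype term. A p-value therefore rests on the spread of the genotype difference over these conditions, true changes of that difference over time included. Alternatives were the additive model, other controls, array weights, other scalings and probe sets, a filter at a mean of 6, and arrays left out. Fits without 1 of the 4 arrays used the additive model.

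Members and gene lists were chosen with earlier results of these data known, and some genes stand on more than 1 list. The naming rule took the 15 largest rises and 10 largest falls, the 8 largest genotype differences in each direction, the 5 largest against untreated livers, 4 members per list, and genes set by name. Outside that rule Alb, Cxcl1, Irgm1, Irgm2, Iigp1, Jak1, Jak2, Stat3, Ptpn2, Psme1, Saa3, Serpina3n, Scd2, Zbtb16, Apcs, Saa-ps, Clec4f and Adgre1 were named after their values were seen.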

Additional observations from a re-analysis of the deposited data

Results flagged for a closer look

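The response at 4 h differed between the genotypes in 105 genes by the test of the difference itself (limma, adjusted p under 0.05). The 8 largest positive differences (SOCS1-/-IFNg-/- minus IFNg-/- response, log2) were Mx1 (5.80), Rsad2 (5.36), Ifit1 (5.13), Cxcl10 (4.96), Ifit3 (4.81), Ifit2 (4.70), Cmpk2 (4.50) and Gm9706 (4.44). The 8 largest negative differences were Mid1ip1 (-2.75), Gpam (-1.70), Cks2 (-1.66), Il1r1 (-1.64), Ak4 (-1.25), Fermt2 (-1.14), S1pr1 (-1.05) and Slc29a1 (-0.997). Each value rests on 1 array per genotype and injection. The dimmer probe sets of Cmpk2, Mid1ip1, Ak4 and S1pr1 had smaller differences, and that of Slc29a1 did not repeat it. The SOCS1-/-IFNg-/- interferon array correlated least with the rest (median r 0.972), and its part in these differences was not tested.

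Probe sets without a single gene symbol stayed out of the comparisons above. Of 1589 such probe sets, 30 were called in the mean response when every probe set was tested (1.89%), 21 higher and 9 lower, against 440 of all 12422 probe sets (3.54%).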

How the results depend on the processing

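Calls in the mean response depended on the model more than on the scaling. The mean response had 112 genes called in the additive model (82 higher, 30 lower), 23 with array weights (20 and 3), 49 without a genotype term (36 and 13), and 0 with the 4 arrays alone (0 and 0), against 340 (1256 at an unadjusted p under 0.05). With untreated in place of PBS livers it had 655 (415 and 240), with all 6 control arrays 705 (429 and 276), and with genes of a mean of at least 6 it had 163 higher. Arrays left out gave 17 to 536 genes (14 to 393 higher, 3 to 143 lower). The genotype difference had 63 genes (56 higher) with the filter and 192 (170 higher, 22 lower) in pair differences against 3 control pairs. With conditions left out it had 99 to 127 (89 to 113 higher, 9 to 16 lower). PBS against untreated livers gave 1 higher gene with quantile normalization, 1 with median centring, 1 with the filter, 5 with the most variable probe set and 5 with every probe set. With conditions left out it gave 1 to 6 (1 to 6 higher, 0 to 1 lower). Interferon-gamma against untreated livers gave 326 in the additive model (213 and 113), 138 with array weights (113 and 25), 254 without a genotype term (160 and 94) and 153 lower with the filter. With conditions left out it gave 610 to 716 (400 to 450 higher, 204 to 271 lower). In SOCS1-/-IFNg-/- livers 117 genes were past 1 with the filter, which tests fewer genes. Counting only genes called in either fit, Me1 (0.28) and Nab2 (0.47) changed sign with untreated as control. Zfp36 (-0.049 to 1.85 with 1 array left out) and Ppara (-1.66 to 0.27) did so without the SOCS1-/-IFNg-/- interferon array. The cause was not tested. Over 92 named genes, 1729 refits of the mean response kept their call or lack of one, 435 lost the call and 17 gained it. A further 4 changed sign with a call in either fit. Where neither fit called a gene, a change of sign counted as kept, as within Fos (-0.33 to 0.91) and Nr1d1 (-0.35 to 1.23). Over 16 genes of the difference 216 refits kept the call and 18 lost it. The labels carry no replicate numbers to use as a block, and the genotypes were paired only within conditions. The number of arrays limits every value.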
